A study of Mus musculus with 6 samples.

Results

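Myostatin, the activin subunits, the follistatins and the receptors they act through were followed as 10 genes, chosen by symbol from the table that pairs identifiers with names, out of 38924 genes measured in 6 mouse RNA-seq libraries. The members were the ligand genes Mstn, Gdf11, Inhba and Inhbb, the follistatin genes Fst, Fstl3 and Fstl1, and the receptor genes Acvr2a, Acvr2b and Acvr1b. All 10 were measured, and all 10 passed the filter on low counts that left 17116 genes for testing.

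The series set induced myogenic progenitor cells (iMPCs), muscle progenitors obtained from mouse fibroblasts by direct reprogramming, beside satellite cells, from which muscle regenerates. Activated satellite cells (ASC), titled Pax7-plus and p1, had 1 library. The iMPC cultures were sorted by nuclear GFP from Pax7, a gene whose product defines satellite cells, and there was 1 library of GFP-positive cells (Pax7-positive iMPCs) and 1 of GFP-negative cells (Pax7-negative iMPCs). Mouse embryonic fibroblasts (MEFs) had 1 library, and quiescent satellite cells (QSC) had 2, from mouse 1 and mouse 3. The expansion medium of iMPCs, per the labels' protocols, held no doxycycline but basic FGF (10 ng/ml), a GSK3 inhibitor (3 µM), the adenylate cyclase activator forskolin (5 µM) and RepSox (5 µM), which blocks ALK5, the type I receptor for TGF-beta. The labels do not say from which fibroblasts these cultures came, whether they were clonal, in what medium ASC and MEFs were grown, or the strain and age of any animal.

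Library totals ranged from 20859611 to 29279686 counts. Of 7 satellite cell markers, 6 reached 1 CPM (counts scaled to sequencing depth) in ASC and in each iMPC fraction, 2 in MEFs and 7 in each QSC mouse. Their sum was 2232 CPM in ASC, 2613 in Pax7-positive iMPCs, 1276 in Pax7-negative iMPCs, 168 in MEFs and 3791 and 2348 in QSC. In Pax7-positive and Pax7-negative iMPCs, Myf5 had 3.57 and 1.05 CPM (QSC mean 104), Calcr 0.257 and 0.0338 (104) and Pax7 37.8 and 6.25 (97.1). Cdh15 lay above its QSC mean in both (962 and 488, against 434). Itga7 did so in the Pax7-positive fraction only (724 and 272, against 336). Vcam1 (168 and 105, against 761) and Myod1 (719 and 404, against 1233) lay below their QSC means in both. Pax7 had 0 counts in MEFs, where Vcam1 (148 CPM) made up most of the sum. Summed over 5 matched genes of differentiating muscle (Myog, Tmem8c, Myh3, Actc1 and Ckm), the level was 10717 CPM in ASC, 2085 in Pax7-positive iMPCs, 4218 in Pax7-negative iMPCs, 3.74 in MEFs and 290 and 8.55 in QSC of mouse 1 and mouse 3. Summed over 6 fibroblast markers (Pdgfra, Col1a1, Col1a2, Col3a1, Dcn and Thy1), it was 630 CPM in ASC, 1983 in Pax7-positive iMPCs, 7632 in Pax7-negative iMPCs, 15386 in MEFs and 1004 and 602 in QSC. In ASC, Col3a1 had 607 CPM and each other fibroblast marker 15.7 CPM or less. The QSC means of Col3a1 and Dcn were 474 and 259 CPM. Erythroid markers summed to 763 CPM in QSC of mouse 1 and 13.6 CPM in QSC of mouse 3, and to 2.24 CPM or less in the other 4 libraries. Endothelial markers summed to 69.7 and 27.0 CPM in QSC and to 17.5 CPM or less elsewhere, and immune markers to 199 and 71.4 CPM in QSC and 10.8 CPM or less elsewhere. Pericyte and smooth muscle markers summed to 1571 CPM in ASC, 470 and 822 CPM in Pax7-positive and Pax7-negative iMPCs, 4253 CPM in MEFs and 534 and 354 CPM in QSC. Most of this was Acta2, with 1381 CPM in ASC, 452 and 751 CPM in the iMPC fractions and 4039 CPM in MEFs (QSC mean 408). In ASC, Rgs5 (155 CPM) and Cspg4 (34.5) lay above their QSC means (16.5 and 6.24), and Myh11 (0.215) below its own (12.8). Levels of 1 gene across libraries are given below as TMM-scaled CPM (TMM is the trimmed mean of M values), and levels of different genes within a library as the authors' RPKM, which is per kilobase.

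Myostatin and its paralog GDF11, and the activins, which are dimers of inhibin beta subunits, are secreted ligands of the TGF-beta superfamily. They bind the type II receptors ACVR2A and ACVR2B, which recruit type I receptors such as ACVR1B (ALK4) and lead to phosphorylation of SMAD2 and SMAD3. Follistatin and FSTL3 bind these ligands and keep them from their receptors. In skeletal muscle, myostatin is known as a brake on growth: animals without it have enlarged muscles, and follistatin in excess has a like effect.

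Mstn, which encodes myostatin (ENSMUSG00000026100), was high in the 3 cultured myogenic libraries and nearly absent elsewhere. It had 73.8 CPM in ASC, 164 CPM in Pax7-positive iMPCs and 279 CPM in Pax7-negative iMPCs. In MEFs it had 1 count, and in QSC it had 27 counts in mouse 1 and 1 count in mouse 3, or 1.29 and 0.0452 CPM. The lowest of the 3 cultured myogenic libraries lay far above both QSC mice, so these groups did not overlap.

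Against QSC, Mstn rose 111-fold in ASC, by 6.79 ± 0.95 on the log2 scale (SE; edgeR quasi-likelihood test, Benjamini-Hochberg adjusted p = 8.23e-05). It rose by 7.95 ± 0.98 in Pax7-positive iMPCs and by 8.71 ± 1.01 in Pax7-negative iMPCs, which is 246-fold and 419-fold (adjusted p = 6.06e-05 and 2.19e-05). The QSC mice themselves differed, with Mstn 28.5-fold higher in mouse 1 than in mouse 3 (95% counting interval 4.69 to 1166). Against mouse 1 alone the log2 differences were 5.76 in ASC, 6.91 in Pax7-positive iMPCs and 7.67 in Pax7-negative iMPCs, and against mouse 3 alone 9.23, 10.38 and 11.14. The summed markers of differentiating muscle were also higher in mouse 1 than in mouse 3 (290 and 8.55 CPM) and highest in ASC, where Mstn was the lowest of the 3 cultured myogenic libraries. Their part in the Mstn levels was not tested. The iMPC medium held RepSox, and its part in the iMPC differences cannot be told apart from that of the cell type. In bulk RNA, fewer cells that express a gene cannot be told apart from less RNA of it per cell.

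Between the cultured libraries, which have no replicate, only ratios with counting intervals can be given. Mstn was 2.22-fold higher in Pax7-positive iMPCs than in ASC (2.10 to 2.35) and 3.78-fold higher in Pax7-negative iMPCs than in ASC (3.59 to 3.98). Pax7-positive iMPCs had 0.588 times the level of Pax7-negative iMPCs (0.568 to 0.609). The iMPC fractions and ASC thus stood in the order Pax7-negative, Pax7-positive, ASC beyond counting error, with no measure of how far replicate cultures would spread. Against MEFs, with 1 count, the ratio was 4391 for Pax7-positive iMPCs (788 to 173459) and 7462 for Pax7-negative iMPCs (1339 to 294767). MEFs and QSC of mouse 3, with 1 count each, could not be ordered (ratio of mouse 3 to MEFs 1.21, interval 0.0154 to 94.98). In MEFs against QSC, Mstn was not called (log2 difference -3.98 ± 1.53, adjusted p = 0.0783), and the pooled counts gave a level 17.4-fold lower in MEFs (2.87 to 711). That difference rested on 1 animal: it was -3.56 against mouse 1 alone and -0.09 against mouse 3 alone. The call turned to lower in MEFs without the filter on low counts or with a minimum of 5 CPM, over a range of adjusted p from 0.00908 to 0.30 in the alternatives.

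**Figure D1:**
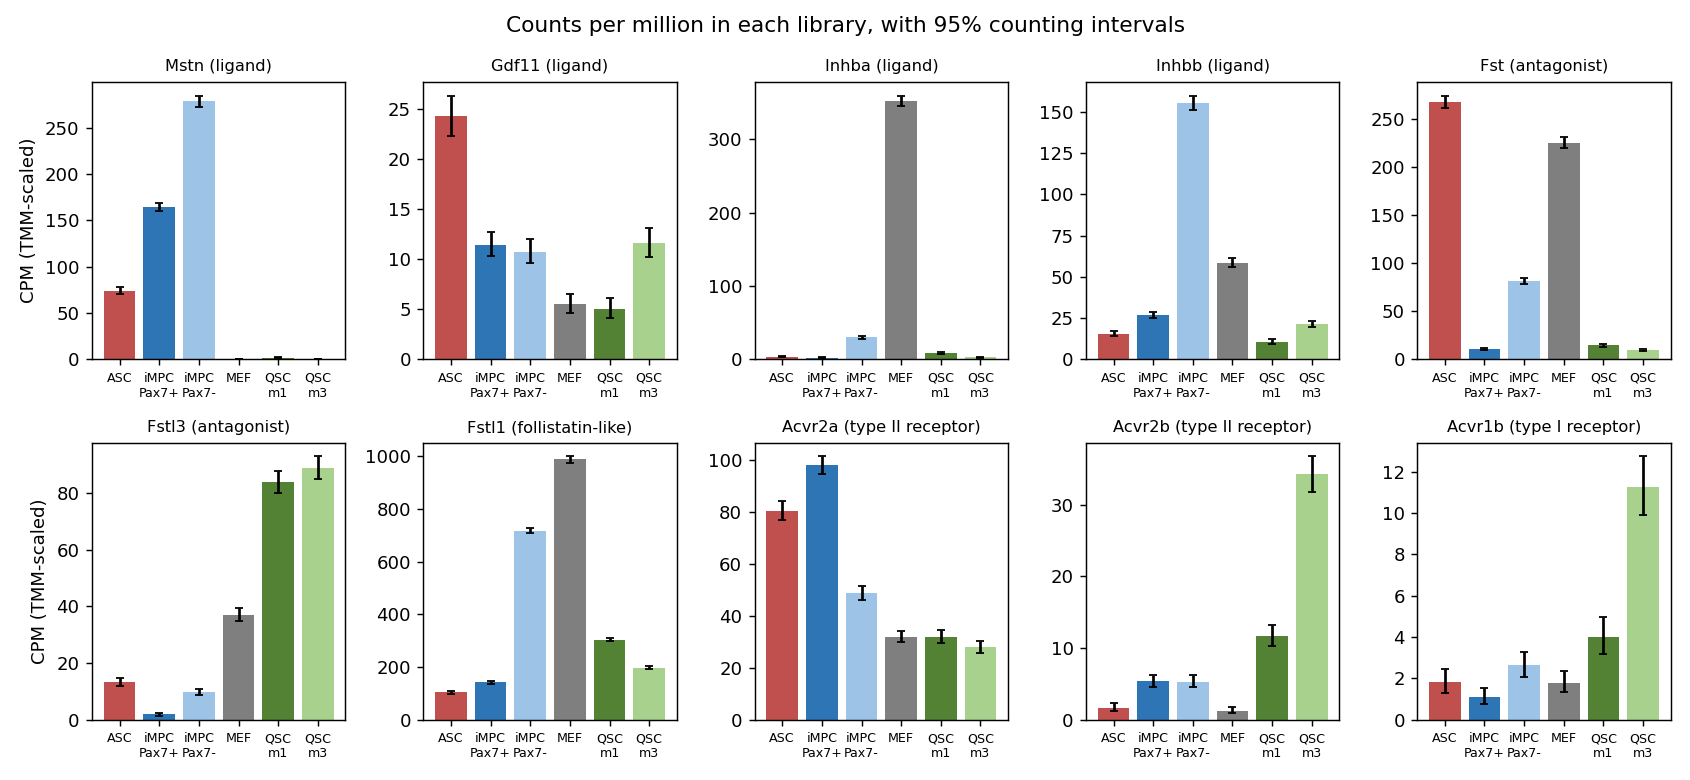
TMM-scaled CPM of the 10 genes (vertical axes, each from 0) in each of the 6 libraries, with exact 95% counting intervals as error bars. Mstn is visible in ASC and both iMPC fractions, Inhba in MEFs at 353 CPM, Fst in ASC, Pax7-negative iMPCs and MEFs, and Fstl3 most in the QSC mice at 83.8 and 89.0 CPM.

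Gdf11, whose product is the close relative of myostatin that patterns the axial skeleton (ENSMUSG00000025352), kept within a far narrower range. It had 24.3 CPM in ASC, 11.4 CPM in Pax7-positive iMPCs, 10.7 CPM in Pax7-negative iMPCs and 5.49 CPM in MEFs, and 5.01 and 11.6 CPM in QSC of mouse 1 and mouse 3. The iMPC levels and that of QSC mouse 3 differed by less than counting error, as did those of MEFs and QSC mouse 1. Across all 6 libraries the highest Gdf11 level was 4.84 times the lowest. None of the 4 comparisons with QSC passed the edgeR test (adjusted p from 0.172 in ASC to 0.784 in Pax7-negative iMPCs), and its log2 difference in ASC was 1.54 with a 95% interval of -0.10 to 3.19. Set side by side per kilobase, Mstn exceeded Gdf11 4.61-fold in ASC, 21.8-fold in Pax7-positive iMPCs and 39.3-fold in Pax7-negative iMPCs. In MEFs and in QSC of mouse 1 and mouse 3 the order was the reverse, with Gdf11 97.1, 2.57 and 170-fold above Mstn.

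Because these paralogs differed so much in pattern, the 250 bases before their annotated starts are shown, beside those of Inhba, the ligand gene that was highest in MEFs. The sequences are from RefSeq on GRCm38.p6, a later build than the mm9 of the counts, and 9 of the 10 members matched that table. Mstn lies on the plus strand at chr1:53061390-53061639, Gdf11 on the minus strand at chr10:128891719-128891968 and Inhba on the plus strand at chr13:16011601-16011850. Each is written 5′ to 3′ and ends at the base before the start, with every CANNTG (E-box, the core motif of myogenic and other basic helix-loop-helix factors) in capitals.
Mstn: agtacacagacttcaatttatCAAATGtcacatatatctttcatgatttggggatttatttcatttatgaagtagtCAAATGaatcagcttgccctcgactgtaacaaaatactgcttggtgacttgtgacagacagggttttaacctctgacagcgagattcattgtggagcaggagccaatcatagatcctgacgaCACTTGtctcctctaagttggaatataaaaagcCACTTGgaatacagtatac
Gdf11: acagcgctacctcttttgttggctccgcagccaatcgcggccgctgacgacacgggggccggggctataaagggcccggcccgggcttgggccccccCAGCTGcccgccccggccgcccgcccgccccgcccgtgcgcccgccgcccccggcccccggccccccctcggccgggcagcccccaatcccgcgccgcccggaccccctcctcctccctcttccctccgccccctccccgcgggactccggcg
Inhba: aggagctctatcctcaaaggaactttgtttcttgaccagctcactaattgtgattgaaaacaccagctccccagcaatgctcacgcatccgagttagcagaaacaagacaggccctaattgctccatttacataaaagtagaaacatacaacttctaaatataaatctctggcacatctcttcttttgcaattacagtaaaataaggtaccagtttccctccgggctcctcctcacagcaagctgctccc
The Mstn window held 4 CANNTG matches, beginning 229, 174, 52 and 19 bases before the start, against 1 in Gdf11 and 0 in Inhba. The motif reads the same on both strands, and 66.2% of 32817 such windows held at least 1. TATAAA, searched on both strands, was found 1 time in each of the 3 windows, 29 bases before the start in Mstn, 185 in Gdf11 and 91 in Inhba, and in 12.4% of all windows. No E-box match overlapped a TATAAA match in these windows. Of the other 6 matched members, the Fstl3 window held 3 CANNTG matches and 1 TATAAA match 29 bases before the start. That match lay on the strand opposite to the gene (TTTATA when read 5′ to 3′), unlike the Mstn match. Fstl3 was highest in QSC. The Acvr1b window held 1 CANNTG match, and those of Inhbb, Fstl1, Acvr2a and Acvr2b held neither motif. The windows also differed in base composition, with 38.4% G and C in Mstn, 81.2% in Gdf11 and 43.2% in Inhba. A match is a description of letters only.

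The activin subunit genes were highest in MEFs and Pax7-negative iMPCs. Inhba, the subunit of activin A (ENSMUSG00000041324), had 3.06 CPM in ASC, 1.61 CPM in Pax7-positive iMPCs, 29.6 CPM in Pax7-negative iMPCs and 353 CPM in MEFs, and 8.77 and 2.67 CPM in QSC of mouse 1 and mouse 3. It was highest in MEFs, next in Pax7-negative iMPCs, and in the other 2 cultured libraries it lay near or below the QSC mice. Inhba rose 61.6-fold in MEFs against QSC, by 5.95 ± 0.73 (edgeR adjusted p = 3.17e-05), and 5.17-fold in Pax7-negative iMPCs, by 2.37 ± 0.66 (adjusted p = 0.0193). Against mouse 1 and mouse 3 alone the values were 5.32 and 7.01 in MEFs and 1.74 and 3.43 in Pax7-negative iMPCs. In ASC and Pax7-positive iMPCs it was not called (-0.90 ± 0.73 and -1.83 ± 0.77, adjusted p = 0.404 and 0.104). Against mouse 1 and mouse 3 alone these differences were -1.50 and 0.19 in ASC, with a change of sign, and -2.39 and -0.70 in Pax7-positive iMPCs.

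Inhbb, the subunit of activin B (ENSMUSG00000037035), was highest in Pax7-negative iMPCs instead. It had 15.4 CPM in ASC, 26.6 CPM in Pax7-positive iMPCs, 156 CPM in Pax7-negative iMPCs and 58.5 CPM in MEFs, and 10.4 and 21.2 CPM in QSC. The ASC level lay between the 2 QSC mice. Inhbb rose 9.85-fold in Pax7-negative iMPCs, by 3.30 ± 0.62 (edgeR adjusted p = 0.00142), and 3.71-fold in MEFs, by 1.89 ± 0.61 (adjusted p = 0.0387). The MEF call was lost with RLE size factors and with library size scaling (adjusted p = 0.0551 and 0.0517, range over the alternatives 0.0157 to 0.0551). Against mouse 1 and mouse 3 alone the MEF differences were 2.48 and 1.46.

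Within the iMPC cultures both activin subunit genes were lower in the Pax7-positive than in the Pax7-negative fraction. Inhba was 18.4-fold lower (counting interval 13.8 to 24.9) and Inhbb 5.85-fold lower (5.43 to 6.30). The summed fibroblast markers were 1983 CPM in the Pax7-positive fraction and 7632 CPM in the Pax7-negative fraction. All 6 reached 1 CPM or more in each. Col3a1 made up most of both sums (1662 and 4836 CPM). Pdgfra had 2.22 and 105 CPM, Dcn 12.3 and 417, Col1a1 66.5 and 1377, Col1a2 230 and 835 and Thy1 10.1 and 61.5. The part of these markers in the activin subunit ratios was not tested.

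Fst, the gene of follistatin (ENSMUSG00000021765), separated Pax7-positive iMPCs from the other cultures. It had 267 CPM in ASC, 10.3 CPM in Pax7-positive iMPCs, 81.5 CPM in Pax7-negative iMPCs and 225 CPM in MEFs, and 14.4 and 9.32 CPM in QSC. Pax7-positive iMPCs thus lay between the QSC mice, and the other 3 cultured libraries above both. Fst rose 22.6-fold in ASC (4.495 ± 0.61, edgeR adjusted p = 6.36e-05), 6.87-fold in Pax7-negative iMPCs (2.78 ± 0.59, adjusted p = 0.00337) and 19.0-fold in MEFs (4.25 ± 0.61, adjusted p = 0.000133). In Pax7-positive iMPCs the log2 difference was -0.20 with a 95% interval of -1.50 to 1.09, and it turned to 0.48 under library size scaling, so neither direction is given. Pax7-positive iMPCs had 0.0385 times the Fst level of ASC (counting interval 0.0343 to 0.0431), and 0.126 times that of Pax7-negative iMPCs (0.112 to 0.142).

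Fstl3, whose product also binds activin and myostatin (ENSMUSG00000020325), ran the other way and was highest in QSC. It had 13.3 CPM in ASC, 1.87 CPM in Pax7-positive iMPCs, 9.69 CPM in Pax7-negative iMPCs and 37.1 CPM in MEFs, and 83.8 and 89.0 CPM in QSC. The 2 QSC mice differed by less than counting error and lay above all 4 cultured libraries. Fstl3 fell 46.2-fold in Pax7-positive iMPCs (-5.53 ± 0.84, edgeR adjusted p = 0.000265), 8.91-fold in Pax7-negative iMPCs (-3.16 ± 0.73, adjusted p = 0.00611) and 6.51-fold in ASC (-2.70 ± 0.71, adjusted p = 0.0121). With library size scaling the calls in Pax7-negative iMPCs and ASC were lost (adjusted p = 0.0535 and 0.0712, ranges over the alternatives 1.57e-05 to 0.0535 and 0.000271 to 0.0712). In MEFs the difference of -1.22 ± 0.65 was not called (adjusted p = 0.197).

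Fstl1, a secreted glycoprotein of mesenchymal cells with a follistatin-type domain (ENSMUSG00000022816), was the most abundant member per kilobase in 4 of the 6 libraries by RPKM: Pax7-negative iMPCs, MEFs and both QSC mice. It had 104 CPM in ASC, 142 CPM in Pax7-positive iMPCs, 717 CPM in Pax7-negative iMPCs and 989 CPM in MEFs, and 305 and 197 CPM in QSC. ASC and Pax7-positive iMPCs lay below both QSC mice, and the other 2 cultured libraries above both. Only the difference in MEFs passed the test among the 4 (3.94-fold, 1.98 ± 0.61, edgeR adjusted p = 0.0307). The difference of 1.52 ± 0.61 in Pax7-negative iMPCs missed it (adjusted p = 0.0946) and passed with library size scaling (adjusted p = 0.046, range over the alternatives 0.046 to 0.127).

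Of the type II receptors, Acvr2a (ENSMUSG00000052155) was highest in the Pax7-positive iMPC and ASC libraries. It had 80.3 CPM in ASC, 97.7 CPM in Pax7-positive iMPCs, 48.6 CPM in Pax7-negative iMPCs and 31.9 CPM in MEFs, and 31.9 and 27.8 CPM in QSC. MEFs and QSC of mouse 1 did not differ beyond counting error. Acvr2a rose 3.27-fold in Pax7-positive iMPCs (1.71 ± 0.57, edgeR adjusted p = 0.0434), a call lost with RLE size factors (adjusted p = 0.0549, range over the alternatives 0.0302 to 0.0549). In ASC the difference of 1.43 ± 0.58 was not called (adjusted p = 0.0898), nor was that of 0.70 ± 0.58 in Pax7-negative iMPCs or 0.10 ± 0.60 in MEFs.

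Acvr2b (ENSMUSG00000061393) was lower in every culture than in either QSC mouse. It had 1.68 CPM in ASC, 5.37 CPM in Pax7-positive iMPCs, 5.34 CPM in Pax7-negative iMPCs and 1.27 CPM in MEFs, and 11.7 and 34.2 CPM in QSC of mouse 1 and mouse 3. The iMPC fractions did not differ beyond counting error, nor did ASC and MEFs, while QSC of mouse 3 was 2.92-fold above mouse 1. Acvr2b fell 13.6-fold in ASC (-3.77 ± 1.06, edgeR adjusted p = 0.0184; -2.75 and -4.29 against mouse 1 and mouse 3 alone). It fell 18.0-fold in MEFs (-4.17 ± 1.09, adjusted p = 0.0124; -3.13 and -4.67). Both calls were lost with library size scaling (adjusted p = 0.107 and 0.0908, ranges over the alternatives 0.000953 to 0.107 and 0.000268 to 0.0908). In Pax7-positive and Pax7-negative iMPCs the differences of -2.10 ± 0.95 and -2.11 ± 0.95 were not called (adjusted p = 0.129 and 0.134).

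Per kilobase, the balance of the 2 type II receptors therefore differed between libraries. Acvr2a RPKM exceeded Acvr2b RPKM 16.5-fold in ASC, 6.27-fold in Pax7-positive iMPCs, 3.14-fold in Pax7-negative iMPCs and 8.66-fold in MEFs. In QSC, Acvr2b exceeded Acvr2a 1.06-fold in mouse 1 and 3.57-fold in mouse 3. These ratios rest on the gene lengths implied by the RPKM values, 4953 bases for Acvr2a and 1708 bases for Acvr2b.

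Acvr1b, the type I receptor ALK4 (ENSMUSG00000000532), was low throughout. It had 1.81 CPM in ASC, 1.09 CPM in Pax7-positive iMPCs, 2.63 CPM in Pax7-negative iMPCs and 1.79 CPM in MEFs, and 4.01 and 11.3 CPM in QSC. All 4 cultured libraries lay below both QSC mice. None of the 4 differences was called, and the one farthest from 0 was -2.80 ± 1.25 in Pax7-positive iMPCs (edgeR adjusted p = 0.124; -1.80 and -3.27 against mouse 1 and mouse 3 alone).

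Counted over the 10 members, 2 rose and 2 fell in ASC, where 11.8% of all genes tested rose and 8.24% fell (20.1% in either direction). In Pax7-positive iMPCs 2 rose and 1 fell, where 11.3% of all genes rose and 9.31% fell (20.6% in all). In Pax7-negative iMPCs 4 rose and 1 fell, where 12.1% of all genes rose and 6.57% fell (18.6% in all). In MEFs 4 rose and 1 fell, where 11.3% of all genes rose and 8.03% fell (19.4% in all). The median log2 difference of the members was -0.47 in ASC, -0.51 in Pax7-positive iMPCs, 1.11 in Pax7-negative iMPCs and -0.25 in MEFs, beside medians over all genes of 0, -0.03, 0.15 and 0. The 4 comparisons share the QSC libraries, so they are not independent of each other. Each rests on the assumption that the lone library varies like the 2 QSC mice. For every member in the iMPC fractions, the part of the medium cannot be told apart from that of the cell type. A gene that was not called is not shown to be alike.

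**Figure D2:**
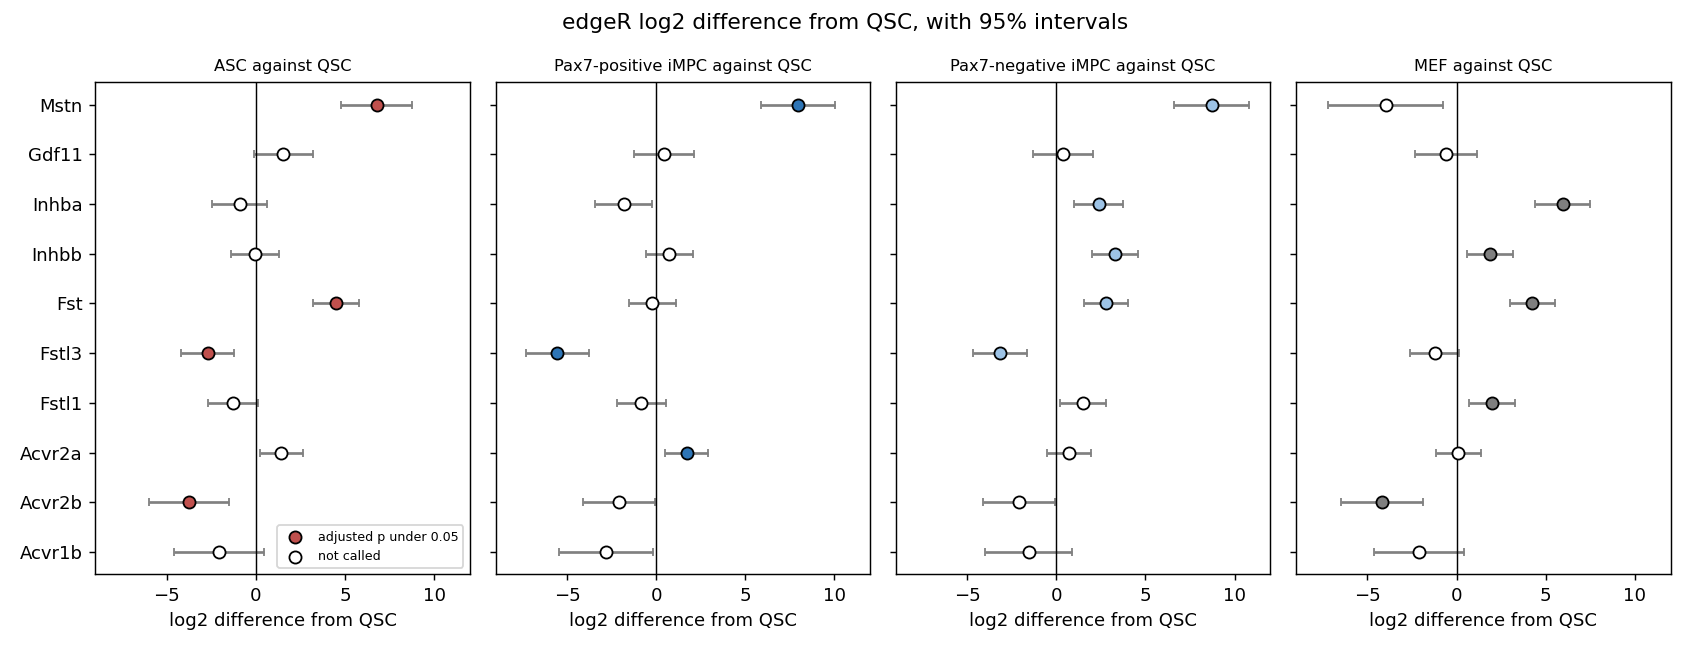
Log2 difference of each gene (rows) from QSC in the 4 comparisons (panels), from edgeR, with 95% intervals as bars; filled points have an adjusted p under 0.05. Mstn lies at 6.79, 7.95 and 8.71 in ASC and the iMPC fractions, and Fstl3 lies left of 0 in all 4 panels without a call in MEFs.

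Between the 4 cultured libraries, members were counted by size, at least 4-fold on log2 CPM with at least 5 CPM in the higher library, with no test. In Pax7-positive against Pax7-negative iMPCs 0 members were higher and 5 lower (Inhba, Inhbb, Fst, Fstl3 and Fstl1), where 0.134% of all genes were higher and 4.30% lower by the rule (4.43% in all). Fstl3 was 5.19-fold lower (counting interval 3.91 to 7.01) and Fstl1 5.06-fold lower (4.90 to 5.23), whereas Gdf11 and Acvr2b did not differ beyond counting error. Against ASC, Fst and Fstl3 were lower in Pax7-positive iMPCs (2.29% of all genes higher, 5.11% lower and 7.40% in all), and Inhba, Inhbb and Fstl1 were higher in Pax7-negative iMPCs (4.95% of all genes higher, 3.47% lower and 8.42% in all). Inhbb there was 10.1-fold above ASC (9.08 to 11.3).

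Against MEFs, Mstn and Acvr2b were higher and Inhba, Fst, Fstl3 and Fstl1 lower in Pax7-positive iMPCs (3.24% of all genes higher, 5.67% lower and 8.91% in all). In Pax7-negative iMPCs Mstn and Acvr2b were higher and Inhba lower (4.73% of all genes higher, 2.38% lower and 7.11% in all), and in ASC Mstn and Gdf11 were higher and Inhba and Fstl1 lower (4.71% of all genes higher, 4.07% lower and 8.78% in all). Inhba had 0.00456 times its MEF level in Pax7-positive iMPCs (0.00338 to 0.00602), 0.0838 times in Pax7-negative iMPCs (0.0781 to 0.0898) and 0.00867 times in ASC (0.00677 to 0.0110). Fst was 1.19-fold higher in ASC than in MEFs (1.15 to 1.23). Acvr2b passed the rule only narrowly, at 5.37 CPM in Pax7-positive iMPCs (4.23-fold, 2.91 to 6.31) and 5.34 CPM in Pax7-negative iMPCs (4.20-fold, 2.88 to 6.28). These intervals reached below 4-fold, as did that of Gdf11 in ASC (4.41-fold, 3.68 to 5.33).

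The 4 ligand genes were then weighed against each other per kilobase. Mstn made up 70.5% of their summed RPKM in ASC, 85.9% in Pax7-positive iMPCs and 64.3% in Pax7-negative iMPCs. In MEFs Inhba made up 93.6%. In QSC of mouse 1 Inhba led with 56.9% and in QSC of mouse 3 Inhbb led with 52.2%, so the 2 mice did not share a leading ligand. The summed ligand RPKM was 43.4 in ASC, 84.0 in Pax7-positive iMPCs, 196 in Pax7-negative iMPCs and 271 in MEFs, against 6.91 and 7.26 in QSC. RPKM holds no TMM scaling, so these sums compare only roughly between libraries. The TMM factors were 0.717 and 0.763 in QSC and 1.11 to 1.21 in the cultured libraries.

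The 2 antagonist genes also differed in which one led. Fst made up 94.3% of the summed RPKM of Fst and Fstl3 in ASC, 81.9% in Pax7-positive iMPCs, 87.4% in Pax7-negative iMPCs and 83.3% in MEFs. Fstl3 made up 87.6% and 92.1% in the QSC mice. Antagonist RPKM divided by ligand RPKM was 3.11 in ASC, 0.0755 in Pax7-positive iMPCs, 0.247 in Pax7-negative iMPCs and 0.49 in MEFs, and 5.16 and 5.28 in QSC. With these 2 antagonists, ASC and both QSC mice lay above 1 and the other 3 libraries below it. With Fstl1 counted as an antagonist the ratio was 1.54 in Pax7-negative iMPCs and 1.71 in MEFs, above 1, and 0.656 in Pax7-positive iMPCs. These are ratios of RNA levels in single libraries, with no test and no measure of protein.

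**Figure D3:**
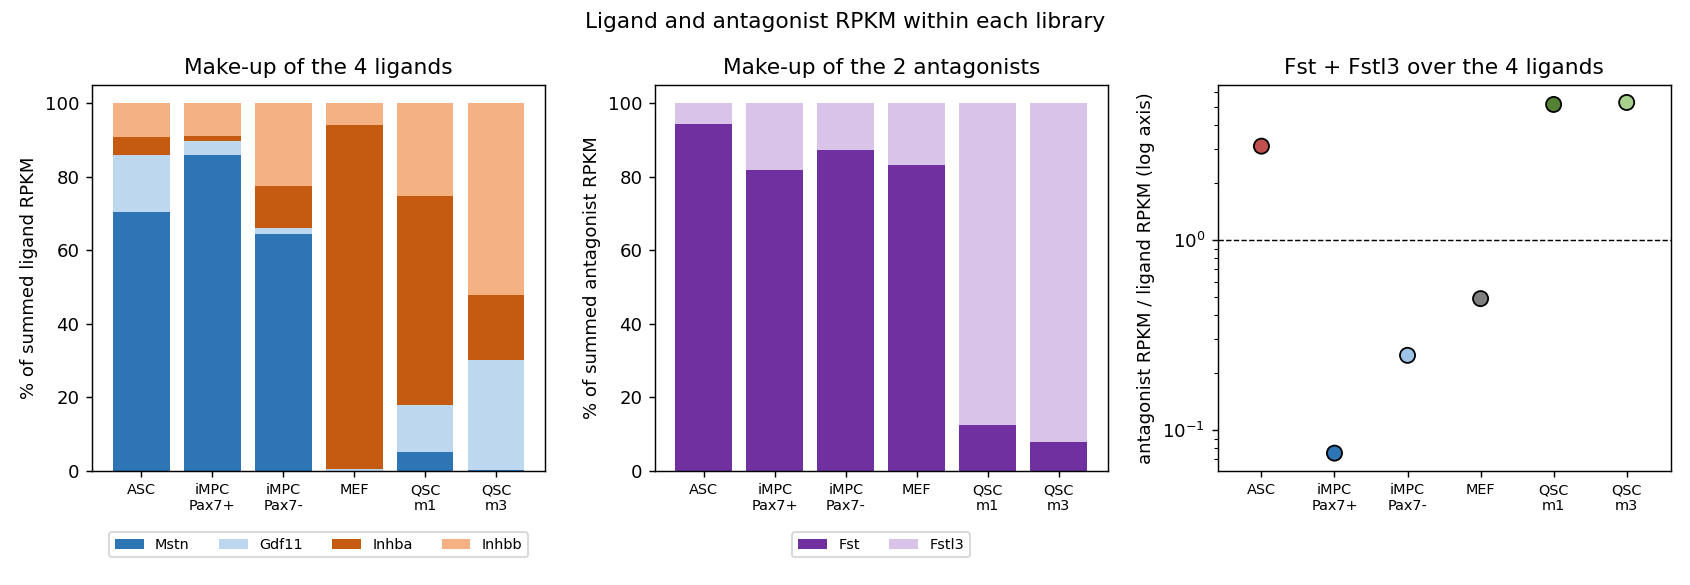
Per library, the share of each ligand in the summed RPKM of the 4 ligand genes (left, %), the share of Fst and Fstl3 in their sum (middle, %) and antagonist RPKM over ligand RPKM (right, log axis, dashed line at 1). Mstn fills most of the ligand bar in ASC and the iMPC fractions, Inhba that of MEFs, and the ratio runs from 0.0755 in Pax7-positive iMPCs to 5.28 in QSC of mouse 3.

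Another 46 genes of the pathway were examined in 6 classes, and 38 of them passed the filter. In ASC 7 rose and 8 fell, in Pax7-positive iMPCs 4 rose and 10 fell, in Pax7-negative iMPCs 6 rose and 7 fell, and in MEFs 5 rose and 4 fell. That is 39.5%, 36.8%, 34.2% and 23.7% of those tested, beside the 20.1%, 20.6%, 18.6% and 19.4% of all genes called. The list was chosen with earlier results of these data known, so these shares do not show enrichment. The counts by class below are small, and stand beside 11.3% to 12.1% of all genes higher and 6.57% to 9.31% lower in these comparisons. The pathway genes' median log2 differences were -0.02, -0.68, -0.21 and 0.12 (0, -0.68, -0.21 and 0 with genes at 0 counts set to their bounds).

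Among the other ligand genes, Inha stood out in ASC. It encodes the inhibin alpha subunit, which pairs with a beta subunit to form inhibin, an antagonist of activin. Inha had 122 CPM in ASC, 1.09 and 1.55 CPM in the Pax7-positive and Pax7-negative fractions and 5.64 CPM in MEFs, and 0.238 and 0.95 CPM in QSC. It rose by 7.66 ± 0.85 in ASC and by 3.23 ± 0.76 in MEFs (edgeR adjusted p = 9.61e-06 and 0.00673). Against mouse 1 and mouse 3 alone the differences were 8.59 and 6.89 in ASC and 4.18 and 2.48 in MEFs. Of the 5 other ligand genes tested, 4 rose in ASC, with Inha, Gdf1 and Tgfb1 farthest from 0, 0 were called in either iMPC fraction and 2 rose in MEFs (Inha and Tgfb3). Tgfb3, a TGF-beta ligand, was at 229 CPM in ASC, 44.1 and 114 CPM in the iMPC fractions and 461 CPM in MEFs, against 76.8 and 63.2 CPM in QSC.

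Of 5 other receptor genes, Tgfbr2, the type II receptor of TGF-beta, rose in both iMPC fractions (2.01 ± 0.57 and 2.10 ± 0.57, edgeR adjusted p = 0.0193 and 0.0163), at 217 CPM in the Pax7-positive and 232 CPM in the Pax7-negative fraction against 60.5 and 47.6 CPM in QSC. Tgfbr3, betaglycan, the co-receptor through which inhibin acts, had 0.258 CPM in ASC, 35.8 CPM in Pax7-positive iMPCs, 154 CPM in Pax7-negative iMPCs and 43.6 CPM in MEFs, against 99.6 and 280 CPM in QSC. It fell in ASC and in Pax7-positive iMPCs (-9.49 ± 1.13 and -2.41 ± 0.75, adjusted p = 1.94e-05 and 0.0314). Against mouse 1 and mouse 3 alone the differences were -8.21 and -9.70 in ASC and -1.47 and -2.97 in Pax7-positive iMPCs. The ASC library thus held the highest Inha and the lowest Tgfbr3 level of the 6.

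The extracellular binders gave 1 rise and 2 falls of 6 tested in ASC and in Pax7-positive iMPCs, and 1 rise and 1 fall in Pax7-negative iMPCs and in MEFs. Bambi, a pseudoreceptor that blocks signalling, had 6.29 CPM in ASC, 3.54 CPM in Pax7-positive iMPCs and 8.41 CPM in Pax7-negative iMPCs, against 175 and 118 CPM in QSC, and fell in these 3 (-4.54 ± 0.78, -5.37 ± 0.82 and -4.12 ± 0.76). Decorin (Dcn), a proteoglycan that binds myostatin and also a fibroblast marker here, fell in ASC, Pax7-positive iMPCs and MEFs (-7.90 ± 0.94, -4.40 ± 0.77 and -2.67 ± 0.70). It had 1.08, 12.3 and 40.6 CPM there and 206 and 312 CPM in QSC. Fstl4, another gene of the follistatin-like group, rose in all 4 comparisons to between 2.46 and 8.04 CPM, against 0 and 4 counts in QSC. Its differences ran from 5.02 to 6.70 against mouse 1 alone and from 3.29 to 4.97 against mouse 3 alone.

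Myostatin is made as a latent precursor, cut by furin-type proteases and freed by tolloid proteases. Of 6 such protease genes, Tll2, a tolloid-like protease that in mice is known to activate latent myostatin, had 5.89 CPM in Pax7-positive iMPCs and 3.99 CPM in Pax7-negative iMPCs, 2 counts in ASC, 0 counts in MEFs and 0 counts in both QSC mice. Against a floor of 3 counts summed over QSC it was at least 84.6-fold and 57.2-fold higher in the iMPC fractions (edgeR adjusted p = 0.00223 and 0.00353). Tll1, its paralog, rose to 8.11 CPM in Pax7-negative iMPCs and 101 CPM in MEFs, against 0.477 and 0 CPM in QSC. Against mouse 1 and mouse 3 alone the Tll1 differences were 3.88 and 6.71 in Pax7-negative iMPCs and 7.52 and 10.35 in MEFs. Pcsk6, a proprotein convertase, rose in ASC, Pax7-negative iMPCs and MEFs to 14.6, 11.7 and 40.5 CPM, against 2.05 and 0.407 CPM in QSC. Its differences against mouse 1 and mouse 3 alone were 2.79 and 4.92 in ASC, 2.46 and 4.60 in Pax7-negative iMPCs and 4.25 and 6.39 in MEFs. Its relative Pcsk5 fell in ASC and Pax7-positive iMPCs to 0.646 and 1.19 CPM, against 36.6 and 29.7 CPM in QSC.

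Of 10 Smad genes and regulators tested, 0 rose in any comparison, and 1 fell in ASC, 2 in Pax7-positive iMPCs, 3 in Pax7-negative iMPCs and 1 in MEFs. Of all genes 8.24%, 9.31%, 6.57% and 8.03% fell in these comparisons, so 1 of 10 is near the background. Tgif1, a transcriptional corepressor of SMAD2 and SMAD3, fell in all 4 (-3.75, -4.17, -4.45 and -3.99), to between 50.6 and 81.9 CPM against 1244 and 960 CPM in QSC. Skil, the SMAD-binding corepressor SnoN, was at 162 CPM in ASC, 10.01 and 10.98 CPM in the Pax7-positive and Pax7-negative fractions and 70.7 CPM in MEFs, against 237 and 248 CPM in QSC. It fell in the 2 iMPC fractions (-4.60 ± 0.76 and -4.47 ± 0.76, edgeR adjusted p = 0.000537 and 0.00063).

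The class of response genes held 6, and in Pax7-positive iMPCs 1 rose and 4 fell. In Pax7-negative iMPCs and in ASC 1 rose and 3 fell, and in MEFs 0 rose and 2 fell. Pmepa1, a TGF-beta target whose product dampens the pathway, was at 194 CPM in ASC, 6.47 and 24.3 CPM in the Pax7-positive and Pax7-negative fractions and 226 CPM in MEFs, against 1733 and 1500 CPM in QSC. The iMPC medium held RepSox, and its part in the Pmepa1 and Skil levels and in these counts cannot be told apart from that of the cell type. Trim63, the muscle ubiquitin ligase MuRF1, went the other way: it had 0 counts in both QSC mice and 75.9 CPM in ASC, 0.837 CPM in Pax7-positive iMPCs and 14.3 CPM in Pax7-negative iMPCs. Those levels were at least 1090-fold, 12.02-fold and 205-fold above the floor of 3 counts summed over QSC, and MEFs had 2 counts.

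**Figure D4:**
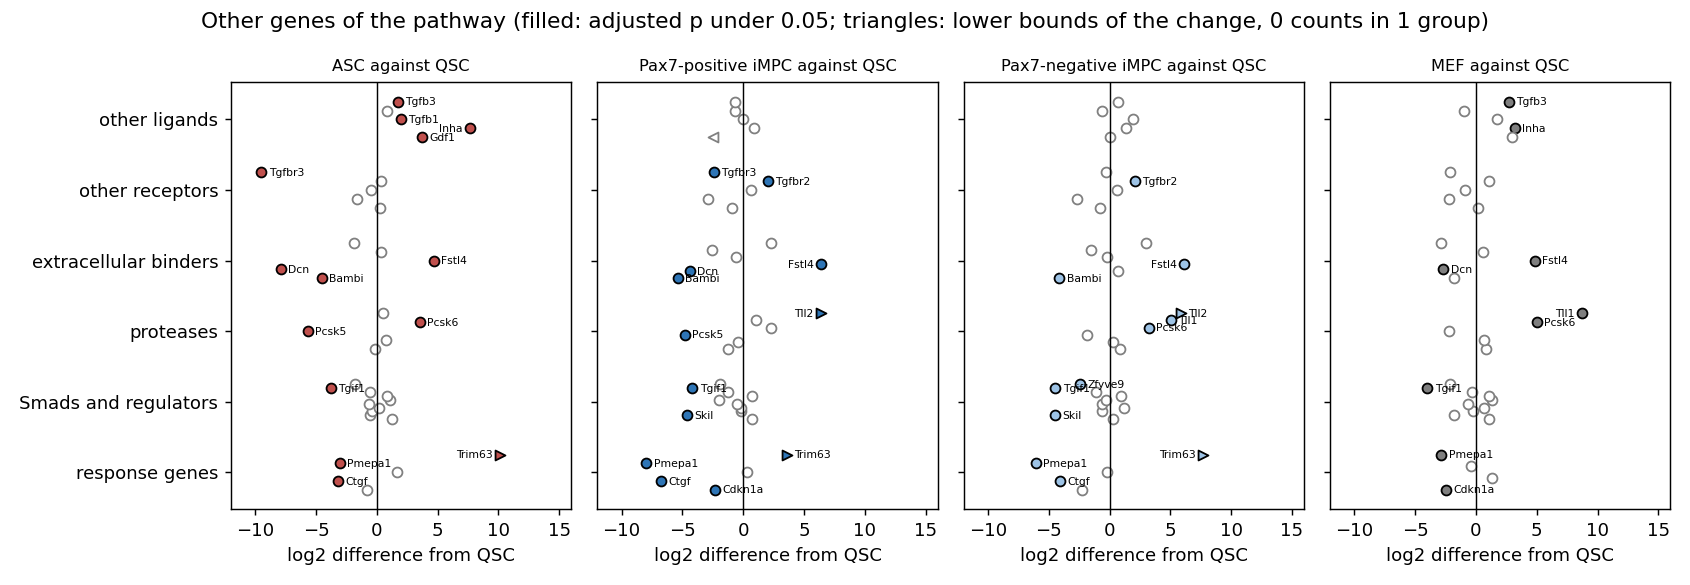
Log2 difference from QSC (horizontal axes) of the other pathway genes by class (rows) in the 4 comparisons; filled symbols have an adjusted p under 0.05 and are named, and triangles are lower bounds where 1 group had 0 counts. Tgif1 lies left of 0 in all 4 panels, and Inha at 7.66 in ASC.

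Across the 6 libraries, the genes whose log2 CPM most resembled that of 3 members were looked up among 12661 genes with at least 5 CPM in 1 library. For Mstn they were 1810041L15Rik (Pearson r = 0.994), Jam3 (0.992) and Trim8 (0.990). For Inhba they were B3galnt1 (0.997), Praf2 (0.986) and Qsox1 (0.986), and for Fst Srgap3 (0.993), Ankrd44 (0.992) and Mical2 (0.991). Of the 3 genes named for Mstn, 1810041L15Rik varied most, though less than Mstn itself. It had 53.6 CPM in ASC, 54.9 and 96.0 CPM in the iMPC fractions, 0.262 CPM in MEFs and 1.19 and 0.362 CPM in QSC. Jam3 ranged only from 54.4 CPM in MEFs to 179 CPM in Pax7-negative iMPCs. These r values describe 6 shared libraries, of which 2 are QSC.

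Some members share exon sequence with a gene on the opposite strand in the GENCODE M21 annotation: Acvr2a with Orc4, Fst with Gm47040 and Fstl3 with Prss57. Whether counting used the strand is not given in the sources used here, so these 3 genes are uncertain to that extent.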

How the data were processed

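For each of the 6 libraries the authors deposited raw counts, 1 value per Ensembl gene, and 1 table of RPKM values for the series, per the file headers. The submitters' processing notes name mm9, edgeR, Picard 1.100, HTSeq 0.6.0 and STAR 2.3.0. Order of steps, annotation and strand use in counting: not given in the sources used here. Libraries were poly(A)-selected and directional, per the labels' protocols. RPKM as deposited equalled counts divided by length and summed counts (largest relative deviation 9.51e-15).

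R 4.3.3 and edgeR 4.0.16 were used on the counts, with the default expression filter by group, TMM, 1 coefficient per group over all 6 libraries, two-sided quasi-likelihood F tests against QSC and Benjamini-Hochberg adjustment over 17116 genes (threshold 0.05). QSC alone had replicates (1 residual degree of freedom, prior 16.3), so p-values rest on 2 mice. SEs are the log2 difference over the root of F. Differences by mouse use log2 CPM with a prior count of 2. Intervals and floors (3 counts) cover counting error only. Alternatives were DESeq2 1.42.0, other scalings and filters, RPKM with pseudocounts of 0.1 and 1, and leaving out each mouse. The fit was tested on simulated data.

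Members, lists and rules were chosen with earlier results of these data known. All members are named. Of the pathway list, called genes may be named, at most 3 per class and comparison by distance from 0. For Mstn, Inhba and Fst the 3 genes with the highest Pearson r are named. Of 35 listed markers 34 matched a symbol. A response gene is counted in its class but neither named nor plotted; its values are not reported here.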

Additional observations from a re-analysis of the deposited data

How the results depend on the processing

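No paired analysis was possible because only QSC had more than 1 library. With library size scaling the median over all genes became 0.59 (log2) in ASC, 0.60 in Pax7-positive iMPCs, 0.86 in Pax7-negative iMPCs and 0.61 in MEFs against QSC. Members called lower then numbered 0 in ASC, 0 in Pax7-negative iMPCs and 0 in MEFs. RLE size factors left 1 member higher in Pax7-positive iMPCs. Without the filter on low counts, or with at least 5 CPM in 1 library, 2 members were lower in MEFs. DESeq2 gave the same counts of members in all 4 comparisons.

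Under the alternatives with a test, these uncalled differences changed sign. With library size scaling Inhbb in ASC was 0.54, Fst in Pax7-positive iMPCs 0.48 and Gdf11 in MEFs 0.021. Without the filter Inhbb in ASC was 0.024, and with at least 5 CPM Acvr2a in MEFs was -0.0054. Against mouse 1 alone Inhbb in ASC (0.56), Gdf11 in MEFs (0.13) and Acvr2a in MEFs (-0.0013), and against mouse 3 alone Inhba in ASC (0.19), Gdf11 in the iMPC fractions (-0.025 in Pax7-positive, -0.11 in Pax7-negative) and Fst in Pax7-positive iMPCs (0.14), all uncalled, also changed sign. With log2 RPKM at pseudocounts of 0.1 and 1, the uncalled Inhbb in ASC (0.62 and 0.47), Fst in Pax7-positive iMPCs (0.49 and 0.41) and Gdf11 in MEFs (0.14 and 0.062) did too. No called member difference did so against either mouse alone or on the log2 RPKM scale, where 20 of 40 differences moved beyond the QSC spread with a pseudocount of 0.1 and 21 of 40 with 1.

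A 2-fold rule gave 5 members in Pax7-positive iMPCs and 7 in Pax7-negative iMPCs against ASC (16.7% and 16.6% of all genes), and 6 in Pax7-negative iMPCs and 7 in ASC against MEFs (15.9% and 17.2% of all genes). The antagonist to ligand ratio without length scaling was 2.41 in ASC, 0.0597 in Pax7-positive iMPCs, 0.192 in Pax7-negative iMPCs and 0.63 in MEFs, and 3.86 and 2.77 in QSC. With Fstl1 among the antagonists it was 3.89, 0.656, 1.54 and 1.71, and 14.4 and 11.3 in QSC, so Pax7-negative iMPCs and MEFs passed 1. The cause of these changes was not tested. Depth limits Mstn in MEFs and QSC of mouse 3, at 1 count each.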

Other observations

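Of the 46 other pathway genes, 8 lay below the filter in the 6 libraries: the ligand genes Inhbc, Inhbe, Nodal and Gdf3, the receptor gene Acvr1c (ALK7), the co-receptor gene Tdgf1 (Cripto), Fstl5 and the SMAD partner Foxh1. Inhbe and Tdgf1 had 0 counts in all 6 libraries. Acvr1c, a type I receptor alternative to ACVR1B, singled out after its values were seen, reached 0.452 CPM at most, in QSC of mouse 3, with 0 counts in ASC and both iMPC fractions and 5 counts in MEFs. Tgfbr1, the gene of ALK5, which RepSox blocks, passed the filter and was also chosen after its values were seen. It had 65.7 CPM in ASC, 144 and 139 CPM in the iMPC fractions and 50.7 CPM in MEFs (QSC mean 92.1), with no call. Low Acvr1b and Acvr1c thus did not extend to every type I receptor gene. Which receptor these ligands used was not tested.

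The WFIKKN proteins are secreted binders of myostatin and GDF11; their genes, not called in any comparison, were chosen after their values were seen. Wfikkn2 had 1 count in ASC, 11 in Pax7-positive iMPCs, 17 in Pax7-negative iMPCs and 2 in MEFs, and 1 and 2 counts in QSC of mouse 1 and mouse 3. Wfikkn1 was at 0.302 CPM in ASC, 0.193 CPM in Pax7-positive iMPCs, 0.405 CPM in Pax7-negative iMPCs and 0.149 CPM in MEFs, against 0.429 and 1.85 CPM in QSC.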
